A study of Mus musculus with 8 samples.

Results

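The acute phase protein genes examined here were *Saa1*, *Saa2*, *Saa3*, *Saa4*, *Orm1*, *Orm2*, *Hp*, *Lcn2*, *Crp* and *Apcs*, chosen by their gene symbols. All 10 were found among the 24940 genes of the table, and all 10 were among the 12340 genes with enough counts to be tested. They were measured in livers from 4 *Fxr* KO (FxrKO) males, numbered 1 to 4, and 4 males that also lacked *Bcl6* in hepatocytes (Bcl6LKOFxrKO), numbered 5 to 8. All mice were C57BL/6, all carried the whole-body *Fxr* deletion written as FXR(homo), and all carried the floxed allele Bcl6(fl/fl). Bcl6LKOFxrKO mice additionally carried Albumin-Cre, which acts in hepatocytes, so *Bcl6* in the other cells of the liver was not targeted. The age of the mice, and whether each was fed or fasted for some hours before harvest, are not given for single animals. No liver with intact *Fxr* was analysed here. The comparison therefore asks what removal of hepatocyte *Bcl6* did to these transcripts in livers with the *Fxr* deletion.

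In the acute phase response, hepatocytes change the proteins they secrete within hours of injury or infection. Interleukin-6 acts through STAT3, interleukin-1 acts through NF-kB, and factors of the C/EBP family act with both at the promoters of the responding genes. Positive acute phase proteins rise in plasma, and negative ones such as albumin and transthyretin fall. BCL6 is a transcriptional repressor whose DNA motif overlaps that of the STAT factors, and FXR is the nuclear receptor for bile acids.

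Polyadenylated RNA was sequenced, and reads on the exons of each gene were counted. Totals ranged from 7586241 to 11839503 counts per liver. CPM are counts scaled to a common library size. On these totals, before TMM scaling, a floor of 3 counts stood at 0.253 to 0.395 CPM, a limit that covers counting error only. Levels are given as CPM after TMM scaling, and levels of different genes are ranked only as CPM per kilobase of transcript (RPKM). Sums, shares and ratios of genes use CPM or counts, without correction for transcript length. *Bcl6*, the targeted gene, was at 56.3, 65.2, 21.2 and 55.6 CPM in FxrKO livers 1 to 4 and at 11.9, 4.61, 5.55 and 7.72 CPM in Bcl6LKOFxrKO livers 5 to 8. Across all tested genes, edgeR's quasi-likelihood test put its log2 fold change at -2.72 ± 0.40 (SE), with an adjusted p of 0.00123. *Nr1h4*, the gene of FXR, was counted in every liver, at 56.7 to 62.6 CPM in FxrKO and 39.4 to 48.1 CPM in Bcl6LKOFxrKO livers, and was called lower (log2 fold change -0.46, edgeR adjusted p = 0.00497). Counts per gene do not show which exons were present. All 7 hepatocyte markers were tested, and their summed level was 55307 to 67207 CPM in FxrKO and 144908 to 162477 CPM in Bcl6LKOFxrKO livers. The higher sum came from *Alb*, since 5 of the 7 had log2 fold changes below 0 (median -0.18), with *Alb* and *Asgr1* called higher and *Ttr* and *Apob* called lower. *Alb* alone took 4.04 to 5.16% of the counts in FxrKO livers and 11.9 to 13.2% in Bcl6LKOFxrKO livers. FxrKO liver 3 and Bcl6LKOFxrKO liver 6 stood at the low and the high end of their genotypes for the acute phase genes, and the fold change of each member without liver 6 is given beside its value. Leaving out the highest Bcl6LKOFxrKO liver pulls these fold changes down, so their shift has 1 direction by construction. In the sample titles the numbers of livers 1 and 6 are consecutive. Those of livers 2, 3, 4, 7 and 8 form another run, and that of liver 5 is in neither. The labels do not say what these numbers mark. Fits without liver 6 keep liver 1, the highest FxrKO liver for 8 of 10 members, so they are uneven in this numbering. Whether the numbering bears on the levels was not tested. In bulk liver RNA, fewer cells of a type and less RNA per cell cannot be told apart.

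The SAA genes lie together on mouse chromosome 7, and their promoters are shown because *Saa1* and *Saa2* are close copies of each other while *Saa4* was the only member that passed the test between genotypes. The promoter of *Apcs* is shown because it was the only member promoter with the letters of a STAT site, although the first 30 bases after its annotated start were in none of the GENCODE M21 transcripts of *Apcs*, unlike those of the other 7 promoters found. RefSeq promoters on GRCm38.p6 were found for 8 of the 10 members, and the windows of *Orm1* and *Hp* were not analysed here. Each sequence is the 250 bases before the annotated start, written 5′ to 3′ on the strand of the gene. The windows are chr7:46742981-46743230 on the minus strand for *Saa1*, chr7:46751583-46751832 on the plus strand for *Saa2*, chr7:46732604-46732853 on the minus strand for *Saa4* and chr1:172895055-172895304 on the minus strand for *Apcs*. Capitals mark letters that match TTNNGNAA, the core of a C/EBP site, in the SAA promoters, and TTCNNNGAA, the letters of a STAT site, in *Apcs*, searched on both strands.
Saa1: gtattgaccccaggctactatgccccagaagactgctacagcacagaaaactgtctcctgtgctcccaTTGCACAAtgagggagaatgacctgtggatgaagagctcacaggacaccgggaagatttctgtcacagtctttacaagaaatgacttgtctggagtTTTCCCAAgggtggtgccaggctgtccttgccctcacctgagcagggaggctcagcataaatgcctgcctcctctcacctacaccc
Saa2: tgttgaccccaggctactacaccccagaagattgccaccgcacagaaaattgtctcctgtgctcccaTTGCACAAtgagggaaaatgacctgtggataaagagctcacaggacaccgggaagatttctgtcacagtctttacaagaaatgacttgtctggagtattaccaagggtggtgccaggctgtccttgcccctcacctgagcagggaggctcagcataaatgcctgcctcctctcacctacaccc
Saa4: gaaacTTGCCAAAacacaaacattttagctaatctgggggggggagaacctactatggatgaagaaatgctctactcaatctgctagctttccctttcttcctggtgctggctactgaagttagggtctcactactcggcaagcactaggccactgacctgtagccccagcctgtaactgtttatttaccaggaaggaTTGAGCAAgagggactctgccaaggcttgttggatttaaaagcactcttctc
Apcs: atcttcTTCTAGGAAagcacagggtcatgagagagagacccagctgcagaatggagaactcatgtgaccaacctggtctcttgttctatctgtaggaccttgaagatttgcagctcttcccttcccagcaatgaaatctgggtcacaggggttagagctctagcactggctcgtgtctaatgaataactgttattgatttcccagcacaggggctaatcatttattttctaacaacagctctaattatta

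The *Saa1* and *Saa2* promoters were 94.8% identical over their alignment of 251 positions. C/EBP letters stood at -182 and -86 in *Saa1* (the first base of each match, counted back from the start), and *Saa2* held a single match, at -183. Such letters were in 7 of the 8 member promoters, and they were in 36.8% of 32851 promoters of the same length. *Saa3* held 4 matches, *Saa4* and *Orm2* held 2 each, and *Lcn2* and *Crp* held 1 each. STAT letters were in 1 of 8, against 7.02% of all promoters. The *Apcs* match at -244 is also a case of TTCCTNGAA, the core letters of a BCL6 site, which were in 1.31% of all promoters. GGGNNNTTC, the first 9 letters of an NF-kB site, was in 0 of 8, against 11.8% of all promoters. These matches describe letters in a short window and are not evidence of binding, which was not tested.

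*Saa4*, which encodes the serum amyloid A protein that the liver makes constitutively and that circulates on high-density lipoprotein, fell in Bcl6LKOFxrKO livers. It is at mm10 chromosome 7 from 46727992 to 46732603 on the minus strand (NM_011316). Its level was 942, 859, 438 and 635 CPM in FxrKO livers 1 to 4, and 97.4, 267, 92.0 and 88.0 CPM in Bcl6LKOFxrKO livers 5 to 8. The groups did not overlap, since the lowest FxrKO liver was above the highest Bcl6LKOFxrKO liver. The mean was 5.28 times higher in FxrKO (719 ± 227 CPM, SD, n = 4) than in Bcl6LKOFxrKO livers (136 ± 87.3 CPM, SD, n = 4). On the log2 scale the fold change was -2.40 (SE 0.44, 95% interval -3.42 to -1.38, edgeR adjusted p = 0.00497). An exact two-sided permutation test over the 70 orderings of the livers gave p = 0.029, the smallest that 4 against 4 allows. *Saa4* passed the test in all 15 alternative analyses, with log2 fold changes between -2.97 (without liver 6) and -2.24. It was 1 of 10 members called in either direction by edgeR, and none of the 10 was higher at an unadjusted p under 0.05 or by DESeq2 or limma voom, while 29.7% of all tested genes were called (16.2% higher and 13.5% lower). It was likewise the only member whose genotypes did not overlap, which was so for 31.3% of all tested genes.

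**Figure D1:**
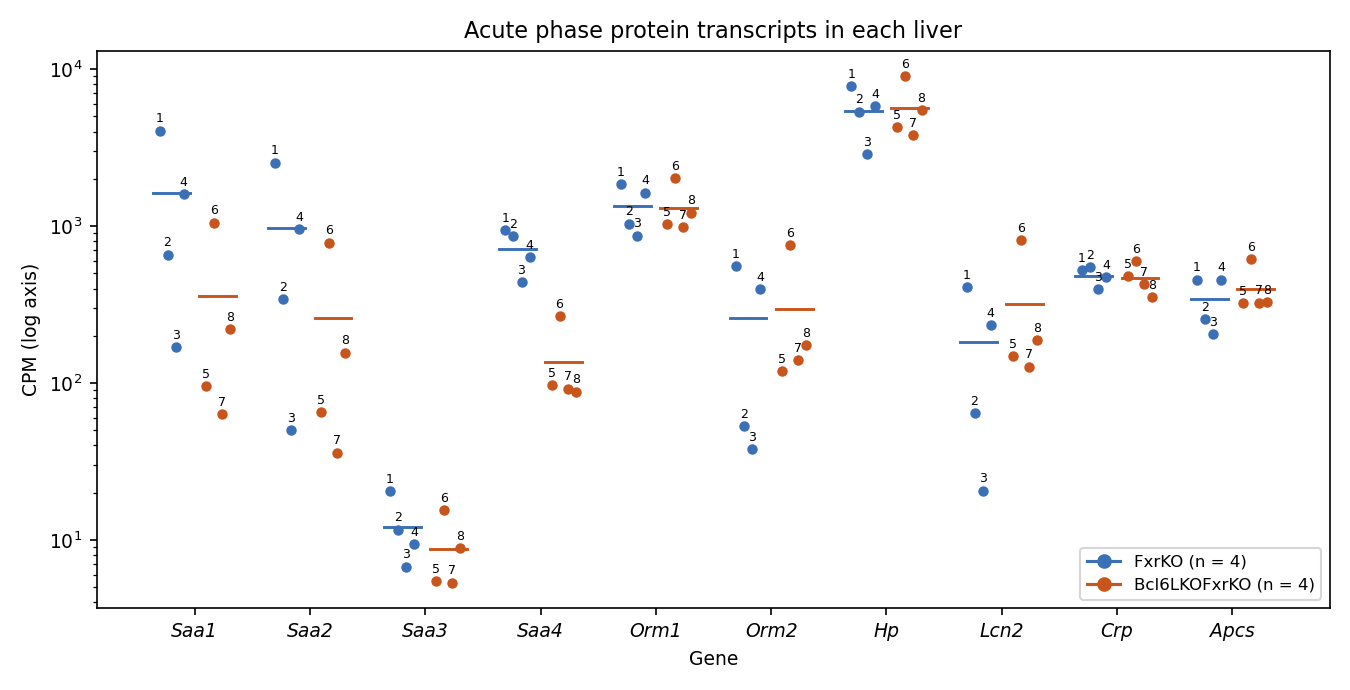
CPM on a log axis of the 10 acute phase protein genes in each liver, with FxrKO livers 1 to 4 in blue and Bcl6LKOFxrKO livers 5 to 8 in orange, points numbered by liver and bars at the mean of 4 livers. *Saa4* is the only gene whose 2 genotypes are apart, while liver 6 is the highest Bcl6LKOFxrKO liver and liver 3 the lowest FxrKO liver for every gene.

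*Saa1* and *Saa2* encode the inducible serum amyloid A proteins, apolipoproteins that hepatocytes release in large amounts during an acute phase response. Neither passed the test, and both varied widely within each genotype. *Saa1* (NM_001357493) was at 4049, 659, 169 and 1598 CPM in FxrKO livers 1 to 4 and at 95.9, 1053, 63.5 and 220.2 CPM in Bcl6LKOFxrKO livers 5 to 8. *Saa2* (NM_011314) was at 2537, 341, 50.1 and 955 CPM in FxrKO livers and at 65.2, 783, 35.9 and 156 CPM in Bcl6LKOFxrKO livers. In both genes livers 1, 4 and 6 were the highest 3 of the 8, and the genotypes overlapped. The highest FxrKO liver exceeded the lowest 24.0 times for *Saa1* and 50.7 times for *Saa2*, and the ranges within Bcl6LKOFxrKO livers were 16.6 and 21.8 times. The log2 fold change of *Saa1* was -2.18, close to that of *Saa4*, but with a 95% interval from -5.28 to 0.93 (edgeR adjusted p = 0.258). That of *Saa2* was -1.90, with an interval from -5.32 to 1.51 (edgeR adjusted p = 0.364). These 4 livers per genotype could thus not show whether *Saa1* and *Saa2* differed by a size like that of *Saa4*. Without liver 6 the log2 fold change of *Saa1* was -3.69 (adjusted p = 0.0847) and that of *Saa2* was -3.51, and neither was called (edgeR).

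The split between these copies was checked because only reads with 1 location had been kept. The *Saa1* and *Saa2* transcripts were 93.9% identical, but none of their windows of 100 bases, the read length, occurred in a transcript of another gene. Summed before the fit, the pair was at 6587, 999.6, 219 and 2553 CPM in FxrKO livers and at 161, 1836, 99.4 and 376 CPM in Bcl6LKOFxrKO livers. The log2 fold change of the sum was -2.07 (SE 1.32, edgeR adjusted p = 0.291).

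*Saa3*, which in mice is made mainly outside hepatocytes, by macrophages and adipocytes among others, was low. It (NM_011315) stood at 20.5, 11.6, 6.77 and 9.37 CPM in FxrKO livers and at 5.44, 15.4, 5.36 and 8.90 CPM in Bcl6LKOFxrKO livers, with overlapping groups. The test was not passed (log2 fold change -0.47, SE 0.42, edgeR adjusted p = 0.43), nor without liver 6 (-0.88, adjusted p = 0.0857).

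*Orm1* and *Orm2* encode alpha-1-acid glycoproteins, plasma carriers of basic drugs and hormones, and lie on chromosome 4 with the related gene *Orm3* between them. *Orm1* (NM_008768) was at 1858, 1034, 871 and 1629.6 CPM in FxrKO livers and at 1033, 2020.3, 980.0 and 1215 CPM in Bcl6LKOFxrKO livers, a log2 fold change of -0.04 (95% interval -0.68 to 0.60, and -0.34 without liver 6). *Orm2* (NM_011016) was at 557, 52.9, 37.7 and 395 CPM and at 119, 756, 140.4 and 175 CPM in the same order of livers. Livers 1, 4 and 6 were again the highest, and FxrKO livers 2 and 3 were below every Bcl6LKOFxrKO liver. The log2 fold change of *Orm2* was 0.19 with an interval from -2.41 to 2.79, which leaves both a large fall and a large rise possible, and it was -0.86 without liver 6. The *Orm1* and *Orm2* transcripts were 91.0% identical and shared 47 of 676 windows of 100 bases, so a read lying wholly in such a window has more than 1 location. For the sum of the pair, the log2 fold change was 0.00042 (SE 0.40).

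*Hp* encodes haptoglobin, which binds free haemoglobin. It (NM_017370) was at 7767, 5353, 2863 and 5801 CPM in FxrKO livers and at 4276, 9037, 3796 and 5504 CPM in Bcl6LKOFxrKO livers, with a log2 fold change of 0.05 (95% interval -0.70 to 0.81, and -0.28 without liver 6). *Hp* took between 40.6 and 66.8% of the counts of the 10 genes in each liver. *Lcn2* encodes lipocalin-2, which binds bacterial siderophores and so withholds iron. It (NM_008491) was at 409, 64.5, 20.6 and 235 CPM in FxrKO livers and at 149, 812, 127 and 188 CPM in Bcl6LKOFxrKO livers. As for *Orm2*, livers 2 and 3 were below every Bcl6LKOFxrKO liver and liver 6 was above all others. The log2 fold change of *Lcn2* was 0.81 (SE 1.05, edgeR adjusted p = 0.613) and it was -0.25 without liver 6.

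*Crp* and *Apcs* encode the short pentraxins C-reactive protein and serum amyloid P, which bind phosphocholine and other ligands on microbes and damaged cells. In mice serum amyloid P is the more inducible of the 2 proteins. *Crp* (NM_007768) was at 522, 546, 395 and 475 CPM in FxrKO livers and at 480.3, 599, 427 and 353 CPM in Bcl6LKOFxrKO livers. It was the steadiest member, with at most 1.70 times between the livers of a genotype, and its log2 fold change was -0.06 (95% interval -0.41 to 0.29, and -0.21 without liver 6). *Apcs* (NM_011318) was at 455, 256, 205 and 457 CPM in FxrKO livers and at 322, 615, 325 and 327 CPM in Bcl6LKOFxrKO livers. Liver 6 lay apart from 3 nearly equal Bcl6LKOFxrKO livers, and the log2 fold change of *Apcs* was 0.21 (95% interval -0.50 to 0.92, and -0.088 without liver 6).

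Per kilobase of transcript, *Hp* had the highest mean of the members in both genotypes, at 4070.2 ± 1507 RPKM in FxrKO and 4225 ± 1769 RPKM in Bcl6LKOFxrKO livers (SD, n = 4). In FxrKO livers it was followed by *Saa1* (2671 ± 2847 RPKM), *Orm1* (1749 ± 611 RPKM) and *Saa2* (1607 ± 1838 RPKM), whose spreads overlapped. The spread of *Saa1* also overlapped that of *Hp*, and in FxrKO liver 1 *Saa1* was the higher (6681 against 5805 RPKM). *Apcs* (349.9 ± 135), *Saa4* (343 ± 109), *Orm2* (340.3 ± 336), *Crp* (286 ± 39.1) and *Lcn2* (216 ± 209.6 RPKM) were also within their spreads of each other. In Bcl6LKOFxrKO livers *Orm1* (1702 ± 626 RPKM) stood between *Hp* and *Saa1* (591 ± 773 RPKM). *Saa4* (65.0 ± 41.7 RPKM) was there below *Crp* (274 ± 61.3 RPKM) and above *Saa3* (16.7 ± 8.99 RPKM).

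Differences between livers of 1 genotype were among the largest of any transcript. The SD of log2(CPM + 1) between livers of a genotype was 2.18 for *Saa2*, 1.87 for *Saa1*, 1.63 for *Orm2* and 1.60 for *Lcn2*, which ranked 1, 2, 4 and 5 of the 12340 tested genes. *Saa4* (0.64), *Saa3* (0.63), *Hp* (0.58), *Apcs* (0.53) and *Orm1* (0.50) ranked between 164 and 431, and *Crp* (0.27) ranked 4091.

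**Figure D2:**
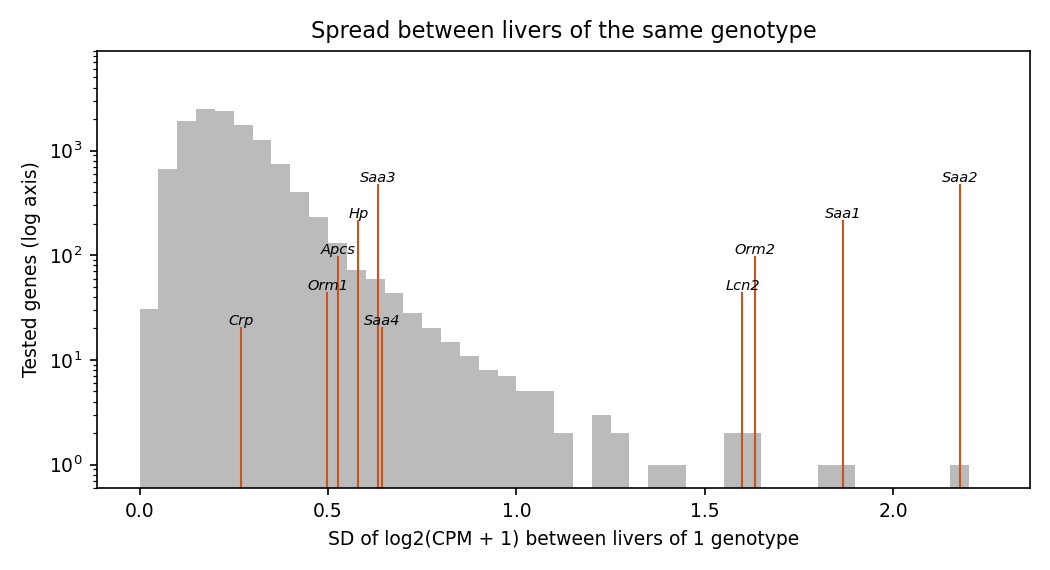
Histogram of the SD of log2(CPM + 1) between livers of the same genotype for all 12340 tested genes, with the number of genes on a log axis and the acute phase protein genes marked by lines whose heights only separate the names. *Saa2*, *Saa1*, *Orm2* and *Lcn2* lie at SDs of 1.60 or more, and *Crp* lies at 0.27 within the bulk of genes.

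The same livers were high or low across the members. FxrKO liver 3 was the lowest of its genotype for 10 of 10 members and Bcl6LKOFxrKO liver 6 was the highest of its genotype for 10 of 10. Among all tested genes these livers held those places in 24.6% and 24.8% of genes. FxrKO liver 1 was the highest for 8 of 10 members, against 26.5% of all tested genes. The summed level of the 10 genes was 19115, 9175, 5057 and 12189.6 CPM in FxrKO livers 1 to 4 and 6643, 15959, 5993 and 8234 CPM in Bcl6LKOFxrKO livers 5 to 8. Liver 3 was also lowest and liver 6 also highest for 23 of 23 other positive acute phase genes, among them the fibrinogen chains *Fga*, *Fgb* and *Fgg*. *Bcl6* was lower in FxrKO liver 3 (21.2 CPM) than in the other FxrKO livers (55.6 to 65.2 CPM).

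**Figure D3:**
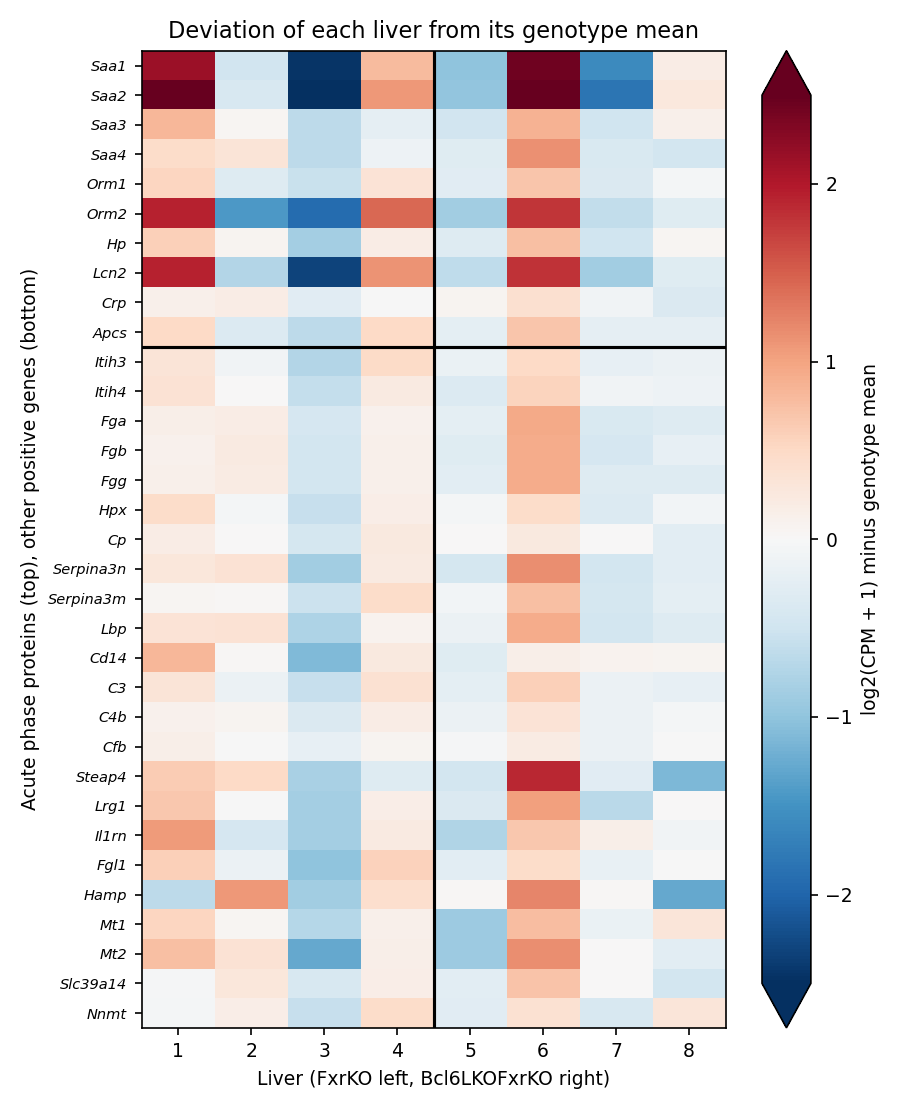
Colour map of log2(CPM + 1) minus the mean of the liver's own genotype, for the 10 acute phase protein genes (top) and 23 other positive acute phase genes (bottom) in livers 1 to 8. FxrKO liver 3 has the lowest and Bcl6LKOFxrKO liver 6 the highest value of its genotype in all 33 rows.

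Within a liver, ratios of counts compare members without the scaling between libraries. Of 45 pairs of members, 11 had ratios that did not overlap between the genotypes, 7 of the 9 pairs with *Saa4* and 4 of the 36 pairs without it. For ratios of any 2 tested genes the share was 33.0%, so such a separation was not particular to the members. Exact permutation tests of the log2 ratios gave no adjusted p under 0.05 over the 45 pairs, and the smallest was 0.117. The 4 pairs without *Saa4* set *Saa1* or *Saa2* against *Orm2* or *Lcn2*, and they were singled out after their values were seen. The ratio of *Saa1* to *Lcn2* counts was 9.90, 10.2, 8.18 and 6.81 in FxrKO livers and 0.644, 1.30, 0.499 and 1.17 in Bcl6LKOFxrKO livers. In FxrKO livers the ratio stayed in that range while *Lcn2* went from 20.6 to 409 CPM. That of *Saa1* to *Orm2* was 4.04 to 12.5 in FxrKO and 0.452 to 1.39 in Bcl6LKOFxrKO livers. The ratios of *Saa4* to *Saa1* and to *Saa2* overlapped between the genotypes.

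**Figure D4:**
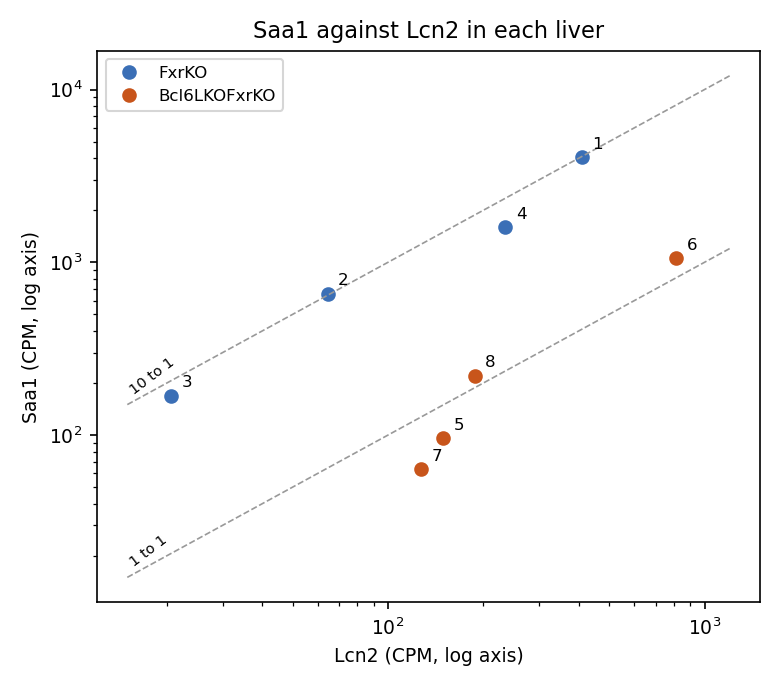
*Saa1* against *Lcn2* in each liver, both in CPM on log axes, with FxrKO livers in blue, Bcl6LKOFxrKO livers in orange and dashed lines at equal ratios of 10 to 1 and 1 to 1. FxrKO livers lie at ratios of 6.81 to 10.2 and Bcl6LKOFxrKO livers at 0.499 to 1.30, over a wide range of both transcripts. The pair was picked after its values were seen, and its permutation p adjusted over the 45 pairs was 0.117.

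Other positive acute phase genes, a list of 23, were all tested, and 6 rose and 0 fell in Bcl6LKOFxrKO livers by edgeR's test, a share of 26.1% called against 29.7% of all tested genes. At an unadjusted p under 0.05, 1 was lower (*Serpina3m*), and 1 was called lower by DESeq2 and 0 by limma voom. Their median log2 fold change was 0.28, against -0.05 for the 10 members and 0.01 for all tested genes. *Cp*, which encodes the copper carrier ceruloplasmin, rose from 1424, 1261, 914 and 1466 CPM to 5603, 6586, 5536 and 4588 CPM (log2 fold change 2.14, SE 0.17, edgeR adjusted p = 1.57e-06). *Itih4*, an inter-alpha-trypsin inhibitor heavy chain, rose from 3677 ± 981 to 10749 ± 3184 CPM (mean ± SD of 4 livers), and *C3*, the central complement component, from 8399 ± 2445 to 16516 ± 5042 CPM. The others that rose were *Hpx* (log2 fold change 0.84), *Cfb* (0.46) and *Mt1* (1.35), of which *Cfb* was called in 13 and *Mt1* in 10 of 15 alternatives. Calls in the other direction differed between analyses. *Serpina3m* was called lower with DESeq2, with total counts alone and without liver 3, and *C4b* with total counts alone. Without liver 6, 6 genes were called lower by edgeR, namely *Fga* (log2 fold change -0.75), *Fgb* (-0.66), *Fgg* (-0.73), *Serpina3n* (-0.83), *Serpina3m* (-1.07) and *C4b* (-0.41). With all 8 livers these had log2 fold changes between -0.74 and -0.24. Liver 6 was the highest Bcl6LKOFxrKO liver for all 23 genes, so leaving it out pulls each fold change down.

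Of 10 negative acute phase genes, 6 rose and 1 fell, a larger share than the 29.7% of all tested genes, with a median log2 fold change of 0.44. *Serpina6*, which encodes corticosteroid-binding globulin, rose from 405, 287, 456 and 671 CPM to 21888, 24694, 23173 and 25874 CPM (log2 fold change 5.72, SE 0.25, edgeR adjusted p = 7.56e-09). *Alb*, albumin, rose from 44554 ± 4422 to 135488 ± 8122 CPM and *Trf*, the iron carrier transferrin, from 18413 ± 2272 to 44211 ± 4648 CPM (mean ± SD of 4 livers). *Serpinc1* (log2 fold change 0.89), *Ahsg* (0.51) and *F12* (0.38) also rose, though *Ahsg* was called in 13 of 15 alternatives, not with total counts alone or without liver 3, and *F12* in 10 of 15, not with total counts alone or without liver 2, 3, 4 or 5. *Ttr*, which carries thyroid hormone and retinol-binding protein, fell from 4236 ± 373 to 2505 ± 489 CPM (log2 fold change -0.76, edgeR adjusted p = 0.0022).

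**Figure D5:**
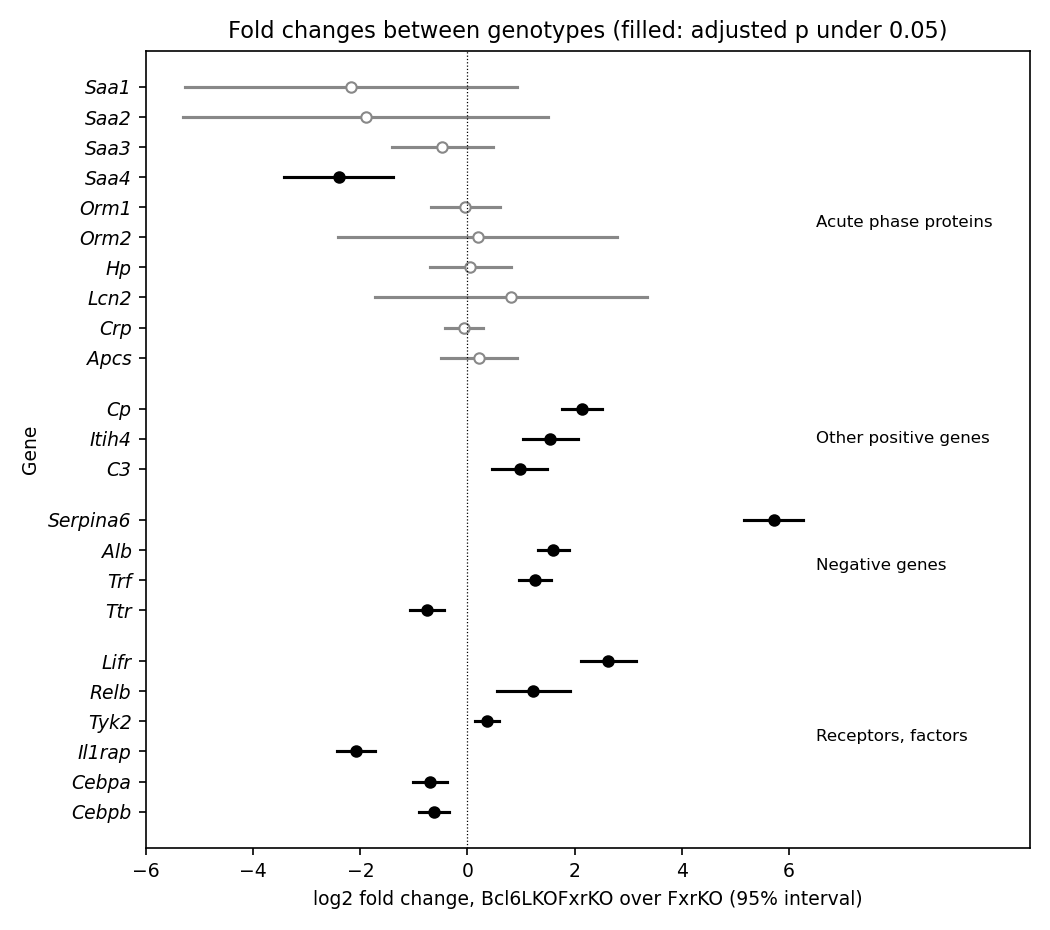
Log2 fold changes of Bcl6LKOFxrKO over FxrKO livers with 95% intervals from edgeR, with filled points at an adjusted p under 0.05. Shown are all the acute phase protein genes, called or not, and named genes of 3 related lists. Those of the related lists were picked from genes already called, so their points are filled by selection. Without a call, and not shown, were 17 of 23 other positive, 3 of 10 negative and 18 of 26 tested signalling genes. *Saa4* is the only filled member at -2.40, and the intervals of *Saa1*, *Saa2*, *Orm2* and *Lcn2* each span more than 5 log2 units.

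The genes that carry and sense the acute phase signal were a list of 32 cytokines, receptors and transcription factors, of which 26 could be tested. Of these 4 rose and 4 fell, and their median log2 fold change was -0.07. The share called was 30.8%, near the 29.7% of all tested genes. Transcripts of the cytokines themselves were scarce. *Il6* and *Il22* had 0 counts in all 8 livers, *Tnf*, *Osm* and *Lif* did not reach the filter, and *Il1b* was at 1.51 to 5.65 CPM. *Lifr*, the receptor for leukaemia inhibitory factor, rose from 303, 341, 437 and 317 CPM to 1878, 3206, 2190.2 and 1401 CPM (log2 fold change 2.63, edgeR adjusted p = 5.61e-06). *Relb*, an NF-kB subunit, rose from 2.73 ± 1.32 to 6.40 ± 1.61 CPM, and *Tyk2*, a Janus kinase, from 31.1 ± 1.82 to 40.2 ± 1.96 CPM (mean ± SD of 4 livers). *Il1rap*, the accessory chain of the interleukin-1 receptor, fell from 89.1, 112, 135 and 104 CPM to 27.2, 29.6, 28.5 and 18.7 CPM (log2 fold change -2.08, edgeR adjusted p = 1.36e-06). *Cebpa* (443 ± 72.5 against 273 ± 38.4 CPM) and *Cebpb*, 2 of the C/EBP factors, fell too, and *Cebpb* was at 47.3 to 63.7 CPM in FxrKO and 32.2 to 43.4 CPM in Bcl6LKOFxrKO livers. *Tnfrsf1a* (log2 fold change 0.40) rose and *Nfkbia* (-0.54) fell. *Tyk2* was called in 12 of 15 alternatives and *Tnfrsf1a* in 10, and both calls were lost with total counts alone and without liver 3 or 4, which left 2 genes called higher. That of *Tnfrsf1a* was also lost without liver 2 or 6 (log2 fold change 0.34, edgeR adjusted p = 0.0619 without liver 6). Neither *Stat3* (log2 fold change -0.09, SE 0.20) nor *Socs3*, a target of STAT3 that restrains it (-0.28, SE 0.58), passed the test.

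Among 12 binding partners and receptors of the members, 11 were tested, 3 rose and 1 fell, a share of 36.4% called against 29.7% of all tested genes, with a median log2 fold change of 0.45. Without FxrKO liver 1, 5 were called higher and 2 lower. *Cd36*, a scavenger receptor that binds SAA, rose from 113 ± 20.9 to 224 ± 39.6 CPM, and *Scarb1*, which encodes the lipoprotein receptor SR-BI, fell from 183 ± 19.5 to 112 ± 21.4 CPM (mean ± SD of 4 livers). *Slc22a17*, a receptor for lipocalin-2, rose from 1.25, 1.12, 1.83 and 1.42 CPM to 2.01, 3.52, 3.70 and 3.72 CPM. *Fcgr1*, a receptor for pentraxins and antibodies, rose from 4.58 ± 1.51 to 7.44 ± 0.637 CPM (edgeR adjusted p = 0.0377), but it was called in only 7 of 15 alternatives, not with total counts alone and not when any one of livers 2 to 8 was left out.

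The 3 genes whose profile over the 8 livers was nearest to that of *Saa4* were *Tedc2*, a component of the tubulin epsilon and delta complex, *Etfbkmt*, a lysine methyltransferase of electron transfer flavoprotein, and *Egfr*, the epidermal growth factor receptor. Their Euclidean distances of centred log2 CPM from *Saa4* were 0.845, 0.976 and 0.978. *Tedc2* was at 89.8, 120.1, 62.2 and 79.9 CPM in FxrKO and at 10.3, 19.1, 8.28 and 7.81 CPM in Bcl6LKOFxrKO livers. *Egfr* was at 525, 582, 453 and 548 CPM and at 91.9, 251, 119 and 74.5 CPM. Liver 6 was the highest of its genotype as for *Saa4*, a likeness that the choice by nearest profile favours. *Etfbkmt* was at 26.5 to 63.1 CPM in FxrKO and 4.81 to 8.98 CPM in Bcl6LKOFxrKO livers.

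Other cells of the liver can express some of these genes. The summed level of 11 neutrophil markers was 2.90 to 9.26 CPM in FxrKO and 9.87 to 22.7 CPM in Bcl6LKOFxrKO livers, highest in liver 6 and lowest in liver 3, with 9 of the 11 below the filter and *Ly6g* at 0 to 3 counts. Most of this sum was *S100a8* and *S100a9*, the 2 that were tested. *S100a9* was called higher (log2 fold change 1.29, edgeR adjusted p = 0.00588) and *S100a8* was not (0.36, edgeR adjusted p = 0.50). The summed level of 8 macrophage and Kupffer cell markers was 343 to 472 CPM in FxrKO and 418 to 755 CPM in Bcl6LKOFxrKO livers, lowest in livers 3 and 6 of their genotypes. *Plin1* and *Lep* had 0 counts in all livers. *Cfd*, the only one of 4 adipocyte markers that could be tested, fell. The adipocyte sum was 1.61 to 12.7 CPM in FxrKO and 0 to 0.292 CPM in Bcl6LKOFxrKO livers. Nearly all of this sum was *Cfd* itself, with *Adipoq* at 0 to 1 counts. Markers of stellate cells and fibroblasts summed to 227 to 318 CPM and 458 to 570 CPM, and those of cholangiocytes to 41.5 to 65.9 CPM and 74.3 to 134 CPM. Of the 9 stellate cell and fibroblast markers, 6 were called higher and 0 lower, a share of 66.7% against 29.7% of all tested genes. Most of the cholangiocyte sum was *Spp1*, at 36.6 to 53.7 CPM in FxrKO and 66.2 to 123 CPM in Bcl6LKOFxrKO livers. Of the 4 cholangiocyte markers tested, 3 had log2 fold changes above 0, with 2 called higher. The other, *Sox9*, was at -0.81 without a call. The part of these cells in the levels of *Lcn2*, *Saa3* and the other members was not tested.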

How the data were processed

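Liver RNA of 4 FxrKO and 4 Bcl6LKOFxrKO males was compared. Per the submitters' processing notes and the file headers, the authors aligned single-end reads of 100 bases to mm10 with STAR 2.5.2, allowing 1 genomic location and up to 4 mismatches per read. The authors deposited unnormalized read counts on exons per gene, made with HOMER 4.10, and the length of the transcript kept for each gene. A stranded kit was used, but the counting options name no strand, so overlapping and antisense genes are uncertain. All 8 deposited sample columns were used.

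Counts were tested with edgeR 4.0.16 in R 4.3.3 (filterByExpr, TMM, robust quasi-likelihood fit, Benjamini-Hochberg over 12340 genes, calls at an adjusted p under 0.05). Alternatives were DESeq2 1.42.0, limma voom 3.58.1, other scalings and filters, a log2 fold threshold of 0.5, summed gene pairs and each liver left out. Counts for this comparison were simulated with 200 of 12340 genes changed, picked at random, and with livers drawn independently. On these counts edgeR recovered 76% of genes changed 2-fold and 96% of those changed 4-fold, with 8.51% false calls. Such rates are averages over genes and do not hold for the members with the widest spread between livers. Apart from the changed genes, the simulated genotypes had the same mean profile. In the real counts 29.7% of genes were called and *Alb* took a larger share in Bcl6LKOFxrKO livers. The rates therefore do not cover scaling between libraries that differ in this way. Counts differed between livers of a genotype by more than sampling noise (chi-square per degree of freedom of at least 10.0). The labels do not say how the livers were processed in batches. The p-values of edgeR set the difference between genotypes against the spread between these livers, estimated with help from other genes.

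Members and lists were chosen with earlier results of these data known. Genes named were the members, *Bcl6*, in each list the 3 smallest adjusted p among calls in each direction, and the 3 nearest profiles to *Saa4*. Other called genes of the lists, the 6 genes called without liver 6, and those given as examples were named after their values were seen. Promoters came from RefSeq (GRCm38.p6) and transcripts from GENCODE M21, aligned with Biopython. Protein sequences were not analysed here.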

Additional observations from a re-analysis of the deposited data

Results flagged for a closer look

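A single liver stood far from the other 3 of its genotype in 9 of 76 groups of 4 livers examined, against about 4 that would be found by chance. Each was judged by how far it lay from its nearest neighbour, as a share of the range of the group, with Dixon's 95% critical value for 4 samples. That value assumes normally distributed levels, and CPM without logs were used. The number found by chance is therefore only a guide. In 8 of the 9 the liver was Bcl6LKOFxrKO liver 6, which was the highest. Among the members it was 0.842 for *Saa1* (1053 CPM against 63.5 to 220.2 CPM in livers 5, 7 and 8) and 0.839 for *Saa2* (783 against 35.9 to 156 CPM). It was 0.947 for *Saa4* (267 against 88.0 to 97.4 CPM), 0.912 for *Orm2* (756 against 119 to 175 CPM), 0.912 for *Lcn2* (812 against 127 to 188 CPM) and 0.982 for *Apcs* (615 against 322 to 327 CPM). Outside the members, it was 0.923 for *C3* and 0.955 for the summed level of the other positive acute phase genes (106666 against 59628 to 61742 CPM). The ninth was *Slc22a17* in Bcl6LKOFxrKO liver 5, which was the lowest at 2.01 CPM with a value of 0.881. The 10 members and the other positive genes move together across livers, so these values are not independent of each other. No FxrKO liver passed the critical value.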

How the results depend on the processing

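*Saa4* remained called under every alternative, and no other member was called under any. Without scaling beyond total counts, the median shift of log2 fold changes was -0.16 and the share of called genes that were higher went from 54.5% to 32.3%, with 2949 genes called lower against 1665. In that analysis 2 other positive genes, 2 negative genes, 7 signalling genes and 2 binding partners were called lower and 2 signalling genes higher. *Alb* and the other abundant genes that took a larger share of the Bcl6LKOFxrKO counts enter that scaling in full. With DESeq2, 1 other positive gene and 2 binding partners were called lower, and with the fold threshold 2 signalling genes were called higher. Some members without a call changed sign. *Hp* was at -0.0057 with limma voom and -0.12 with total counts, *Orm2* at -0.0055 with total counts, and *Orm1* at 0.00042 in the summed pair.

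With each liver left out, log2 fold changes ranged from -0.34 to 0.15 for *Orm1*, -0.86 to 0.87 for *Orm2*, -0.28 to 0.27 for *Hp*, -0.25 to 1.57 for *Lcn2*, -0.21 to 0.053 for *Crp*, -0.088 to 0.38 for *Apcs* and -0.045 to 0.49 for the neighbouring gene *Orm3*. Called lower were 0 to 6 other positive genes (6 without liver 6 and 1 without liver 3) and 1 to 2 binding partners (2 without liver 1), of which 2 to 5 were called higher (5 without liver 1 and 2 without any one of the others). Signalling genes called higher were 2 to 5 (2 without liver 3 or 4). The cause of these changes was not tested. For the members and the genes named by rule, 470 fold changes kept direction and call, 17 reversed and 11 lost their call, those of *Tyk2* and *Fcgr1*. Of the other called genes in the text, *F12*, *Tnfrsf1a* and *Mt1* were called in 10 and *Cfb* and *Ahsg* in 13 of 15 alternatives. No paired analysis was possible because the labels give the genotypes no shared replicate numbers and do not say what the consecutive numbers in some titles mark. The lowest count of *Saa1*, *Saa2*, *Orm2* or *Lcn2* in any liver was 192, and depth limited mainly *Il6*, *Tnf*, *Osm*, *Lif*, *Il22*, *Socs1* and 9 of 11 neutrophil markers, which were too scarce to test.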
